A study of Mus musculus with 6 samples.

Results

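Malat1 and Neat1 are long noncoding RNAs that stay in the nucleus, and Gas5, Snhg1, Snhg3, Snhg5, Snhg6, Snhg8 and Snhg12 are spliced noncoding genes whose introns hold small nucleolar RNAs (snoRNAs). These 9 genes of the 34718 in the deposited count table were taken as 2 nuclear-retained RNAs and 7 snoRNA hosts. They were chosen by name with levels in these libraries in view. In particular, the high values of Malat1 and Neat1 in the first control library were known when they were selected on that contrast. The values below are therefore a description, and nothing is read from the calls given for the 9 genes. All 9 passed the filter on low counts that left 11975 genes for testing.

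The cells were Hepa1-6, a mouse hepatoma line grown in culture. RNA levels were compared by sequencing after a short hairpin against Zfp207, the mouse counterpart of the human zinc finger gene ZNF207, and the question of the study was how the loss of this protein alters expression. The 6 libraries were 3 controls titled shNC, of the genotype called control, and 3 titled shZfp207, of the genotype called Zfp207 knockdown. All share the cell line and the medium, and no further treatment, time or allele is given in the sources used here. The number of hairpins is not given either, so effects of a hairpin other than loss of Zfp207 cannot be told apart from it. No source says if replicates were grown apart, so p-values cover the spread of these samples alone and that spread may be technical.

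Total counts ran from 11933736 to 16248346 per library, and a count of 0 allowed up to 3 counts, or 0.185 to 0.251 CPM (counts per 1000000 counts of a library), for counting error only. Zfp207 had 141 to 217 CPM in the controls and 46.8 to 48.1 CPM in the knockdown libraries (log2 fold change -1.95, edgeR adjusted p = 0.00236). Control replicate 1 stood apart from the other libraries. Genes encoded by mitochondrial DNA made up 10.5% of the counts there, 2.67% to 2.89% in the other controls and 5.6% to 6.0% after knockdown. Results are therefore given with and without it. Of 10 hepatocyte markers 7 had a mean of at least 1 CPM, with a summed level of 2540 to 3440 CPM in control and 5230 to 5550 CPM in knockdown libraries, while Ttr and Serpina1a were near 0. Alb and Afp made up most of that sum in the knockdown libraries. Trf went against it, with 718 to 863 CPM in control and 516 to 526 CPM in knockdown libraries, and Hnf4a had 340 to 379 and 352 to 378 CPM. Leukocyte markers summed to 14.1 to 19.6 CPM in control and 11.7 to 13.8 CPM in knockdown libraries, with Cd3e and Cd8a at 0. Endothelial markers summed to at most 2.05 CPM in any library. The stromal sum of 2020 to 2280 CPM in control and 2680 to 2770 CPM in knockdown libraries came almost wholly from Dcn, and the part of these cell type markers in the results was not tested. In bulk RNA, fewer cells that express a gene and less of its RNA per cell cannot be told apart.

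Malat1 gathers at nuclear speckles, bodies rich in splicing factors, and Neat1 is the scaffold of paraspeckles, which form around its long isoform. Malat1 and the long Neat1 isoform lack an ordinary poly(A) tail: RNase P cuts just before a small tRNA-like RNA, or its Neat1 counterpart, and the A-rich tract left at the new end folds with U-rich stretches into a triple helix that protects it. The snoRNA hosts work differently. Their introns release box C/D snoRNAs, which guide methylation of ribosomal RNA, or box H/ACA snoRNAs, which guide pseudouridylation, while many of the spliced exons are cleared by nonsense-mediated decay. Several hosts start with a 5′ terminal oligopyrimidine tract, the signature of mRNAs of the translation machinery.

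The sequence at the Malat1 3′ end is shown because it sets this RNA apart from the spliced hosts. In GRCm38 it lies on the minus strand at chr19:5795958-5796089, and the capitals mark the run of 12 A at bases 6674 to 6685 of the 6983-base transcript. The bases after the run hold more of the A-rich tract and then the first bases of the tRNA-like RNA. Another 298 bases of the annotated transcript follow the run.
Malat1 3′ end: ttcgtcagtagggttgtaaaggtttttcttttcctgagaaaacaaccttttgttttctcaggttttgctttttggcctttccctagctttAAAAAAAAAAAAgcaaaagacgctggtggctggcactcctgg

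Sequences of 4 intronic snoRNAs are shown because they are the products that the host genes carry. They were read from GENCODE M21 annotated positions in GRCm38, and the capitals mark box C (TGATGA) and box D (CTGA), or the ACA near the 3′ end of an H/ACA RNA. Snord87 of Snhg6 lies on the minus strand at chr1:9942463-9942549. Snord47 of Gas5 lies on the plus strand at chr1:161038082-161038158, Snord50a of Snhg5 on the minus strand at chr9:88521529-88521600 and Snora24 of Snhg8 on the minus strand at chr3:123507937-123508066.
Snord87: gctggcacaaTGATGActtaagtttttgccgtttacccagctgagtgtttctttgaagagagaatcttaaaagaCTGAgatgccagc
Snord47: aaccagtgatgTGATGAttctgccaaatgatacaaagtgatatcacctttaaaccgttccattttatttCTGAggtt
Snord50a: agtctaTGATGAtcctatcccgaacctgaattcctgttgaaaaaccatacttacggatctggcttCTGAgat
Snora24: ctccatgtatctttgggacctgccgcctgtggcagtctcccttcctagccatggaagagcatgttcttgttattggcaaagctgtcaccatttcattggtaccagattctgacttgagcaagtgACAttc

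By position, Gas5 held 10 annotated snoRNA entries, Snhg1 held 8, Snhg12 held 5, Snhg3 and Snhg5 held 2 each, and Snhg6 and Snhg8 held 1 each. Snord80 in Gas5 and Snora16a in Snhg12 are each annotated as 2 overlapping entries, and both entries are counted here and below. Exact box C and box D letters were found in 8 of 10 for Gas5, in 5 of 8 for Snhg1, in both of Snhg5 and in the one of Snhg6. An ACA at the end marked both of Snhg3, the one of Snhg8 and 3 of 5 in Snhg12, which also held 1 with C/D letters. The missing letters in the others say only that these exact letters are not there. The count table lists 1 snoRNA or small Cajal body RNA gene where GENCODE M21 has 1558, and that one lies in no host described here, so the levels of the hosted snoRNAs were not analysed here and host counts cannot stand for them.

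The start sites are shown because several snoRNA hosts start with a pyrimidine tract. The run marked below may begin after the first base, so it is a looser feature than that tract. RefSeq promoter sequences of GRCm38.p6 were matched for 7 of the 9 genes, giving 8 starts, with Gas5 at 2 of them. Each line gives 30 bases before and 30 bases from the start onward, and the capitals mark the longest run of C and T that begins within the first 10 transcribed bases.
Gas5 (chr1:161035136-161035195, plus): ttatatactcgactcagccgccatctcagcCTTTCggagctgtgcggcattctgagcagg
Snhg1 (chr19:8723457-8723516, plus): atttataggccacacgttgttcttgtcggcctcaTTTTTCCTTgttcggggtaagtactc
Snhg3 (chr4:132353657-132353716, minus): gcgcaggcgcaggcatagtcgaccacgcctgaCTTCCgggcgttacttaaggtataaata
Snhg5 (chr9:88522868-88522927, minus): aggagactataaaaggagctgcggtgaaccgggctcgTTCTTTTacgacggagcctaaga
Snhg8 (chr3:123508307-123508366, minus): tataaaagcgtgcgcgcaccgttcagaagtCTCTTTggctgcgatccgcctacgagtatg
Snhg12 (chr4:132308648-132308707, plus): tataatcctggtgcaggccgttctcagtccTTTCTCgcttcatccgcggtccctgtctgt
Malat1 (chr19:5802643-5802702, minus): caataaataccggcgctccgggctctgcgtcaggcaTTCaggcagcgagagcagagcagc

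A run of at least 5 pyrimidines began in that window at 6 of the 8 starts, all of them hosts, against 23.5% of 32851 promoters in the table. Snhg1 had the longest, of 9 bases. Malat1 and the second Gas5 start, upstream of the one shown, each had a run of 3. A C at the start followed directly by 4 pyrimidines was present at 2 of the 8 starts (Gas5 and Snhg8) against 2.51% of promoters. TATAAA between 40 and 11 bases before the start, on the transcribed strand, was present at 2 of the 8 (Snhg5 and Snhg8) against 2.08%. The genes were not chosen on these letters, and the matches are descriptions of the sequence, not sites of binding or use.

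Malat1 (ENSMUSG00000092341) lies on chromosome 19 (minus strand, 5795690 to 5802672) in mm10 and is annotated as a lincRNA of 6983 exonic bases. Its level was 330.8, 30.84 and 30.03 CPM in the controls and 104.3, 123.5 and 129.5 CPM in the knockdown libraries, each listed here and below in the order of replicates 1 to 3. The knockdown libraries all lay between control replicate 1 above and the other controls below, so the groups overlapped. Control replicate 1 was 10.9-fold above the mean of control replicates 2 and 3, which differed from each other by 1.03-fold, and the knockdown mean was 3.91-fold above it. The scaled means were 129.2 ± 171.0 CPM for the controls and 119.7 ± 13.85 CPM after knockdown (SD, n = 3 libraries each), and the fitted log2 fold change was -0.11 (SE 0.90). Without control replicate 1 it was 1.98 (SE 0.11), in the opposite direction.

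Neat1 (ENSMUSG00000092274), its neighbour on the same strand from 5824708 to 5845478, is annotated as 20771 exonic bases. It had 160.6, 6.168 and 9.478 CPM in the controls and 21.2, 17.78 and 19.14 CPM in the knockdown libraries. The order was that of Malat1, with control replicate 1 farther above the other controls and the knockdown libraries less far above them. Control replicate 1 was 20.5-fold above the mean of the other controls and the knockdown mean 2.48-fold above it. The low values rest on 90 and 154 counts in control replicates 2 and 3, with an exact 95% counting interval of 4.96 to 7.58 CPM for the lower. The fitted log2 fold change was -1.57 (SE 1.14) with 6 libraries and 1.31 (SE 0.18) without control replicate 1. The 3′ processing isoforms of Neat1 share their 5′ part and were not separated in the counts.

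Malat1 and Neat1 did not move by one factor. Malat1 counts were 2.06 times those of Neat1 in control replicate 1, 5.0 and 3.17 times in the other controls, and 4.92, 6.95 and 6.76 times after knockdown. Control replicate 1 thus held the lowest proportion of Malat1 to Neat1, although both were highest there.

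Among the hosts, Snhg6 and Snhg3 had the same order of libraries, with control replicate 1 far above the rest. Snhg6 (ENSMUSG00000098234), on chromosome 1 (minus strand, 9941959 to 9944118), hosts Snord87. It had 38.21, 5.483 and 7.632 CPM in the controls and 14.18, 12.27 and 12.78 CPM in the knockdown libraries. Control replicate 1 was 5.83-fold above the mean of the other controls and the knockdown mean 1.99-fold above it. The log2 fold change was -0.35 (SE 0.69) with 6 libraries and 1.00 (SE 0.16) without that library. It shares 127 exonic bases, at its 3′ end, with Mcmdc2 on the opposite strand, but Mcmdc2 had at most 4 counts in any library.

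Snhg3 (ENSMUSG00000085241), on chromosome 4 (minus strand, 132348014 to 132353686), hosts H/ACA snoRNAs in its introns. It was the least abundant by counts, with 11.48, 3.427 and 1.6 CPM in the controls and 4.528, 4.644 and 6.972 CPM in the knockdown libraries. Control replicate 3 rests on 26 counts, with an interval of 1.05 to 2.34 CPM. The interval of control replicate 2, 2.54 to 4.52 CPM, overlapped those of knockdown replicate 1, 3.52 to 5.73 CPM, and knockdown replicate 2, 3.62 to 5.87 CPM, so the gap between them was within counting error. The log2 fold change was 0.01 (SE 0.65) with 6 libraries and 1.12 (SE 0.35) without control replicate 1. On the same strand Snhg3 shares 135 exonic bases, 13.7% of its exonic length, with Rcc1, the exchange factor for the nuclear transport GTPase Ran, and reads there cannot be assigned to one of them. Rcc1 had 58.0, 45.2 and 41.7 CPM in the controls and 57.2, 55.7 and 53.5 CPM in the knockdown libraries (edgeR log2 fold change 0.21, SE 0.14, adjusted p = 0.303, and 0.36 with adjusted p = 0.00483 without control replicate 1). Gm17300 overlaps 71.5% of the exonic length of Snhg3 on the opposite strand and had 0 counts, and the strand setting of the counting is not given.

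Snhg1, Snhg8 and Snhg5 varied less. Snhg1 (ENSMUSG00000108414), on chromosome 19 (plus strand, 8723475 to 8726443), carries C/D snoRNAs. It had 93.35, 55.58 and 61.36 CPM in the controls and 70.95, 73.83 and 75.87 CPM in the knockdown libraries. The knockdown libraries again lay between control replicate 1 and the rest, and the log2 fold change was 0.09 (SE 0.19), or 0.34 (SE 0.07) without that library. Snhg8 (ENSMUSG00000104960), on chromosome 3 (minus strand, 123507552 to 123508404), hosts Snora24. Its values were 32.76, 14.39 and 19.45 CPM in the controls and 23.17, 21.16 and 21.33 CPM in the knockdown libraries. They had the same order, but control replicates 2 and 3 differed by more than the knockdown libraries did among themselves. The counting interval of control replicate 3, 17.4 to 21.7 CPM, also overlapped that of knockdown replicate 2, 18.9 to 23.6 CPM. The log2 fold change of Snhg8 was close to 0 (SE 0.28) and was 0.38 (SE 0.14) without control replicate 1.

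Snhg5 (ENSMUSG00000097195), on chromosome 9 (minus strand, 88521050 to 88522929), hosts Snord50a. It had 24.38, 21.45 and 19.69 CPM in the controls and 19.95, 27.66 and 21.46 CPM in the knockdown libraries. Its groups were interleaved, with the highest value in knockdown replicate 2, and its log2 fold change was 0.09 (SE 0.16) with 6 libraries and 0.17 (SE 0.15) without control replicate 1.

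Gas5 and Snhg12 were the 2 of the 9 genes whose groups did not overlap, in opposite directions. At 44.7% of the 11975 tested genes the groups did not overlap. Gas5 (ENSMUSG00000053332), on chromosome 1 (plus strand, 161034422 to 161038539), is known for accumulating when growth stops, and its short exons are a target of nonsense-mediated decay. It had 175, 98.14 and 95.39 CPM in the controls and 78.3, 78.28 and 78.88 CPM in the knockdown libraries. Every knockdown library was below every control, and the 3 knockdown values lay close together. Gas5 was at 0.811 of the mean of control replicates 2 and 3 after knockdown, and its log2 fold change was -0.63 (SE 0.23) with 6 libraries and -0.30 (SE 0.05) without control replicate 1. Zbtb37, a zinc finger gene on the opposite strand, overlaps its span with no shared exonic base and had 25.2, 13.6 and 12.6 CPM in the controls and 21.4, 23.3 and 24.1 CPM in the knockdown libraries (edgeR log2 fold change 0.44, SE 0.27, adjusted p = 0.281, and 0.82 with adjusted p = 0.000651 without control replicate 1).

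Snhg12 (ENSMUSG00000086290), on chromosome 4 (plus strand, 132308678 to 132311024), carries mostly H/ACA snoRNAs. It had 18.27, 18.3 and 20.31 CPM in the controls and 27.11, 21.03 and 25.91 CPM in the knockdown libraries. Of the 9 genes it alone had its lowest value in control replicate 1, but within counting error. The intervals of control replicates 1 and 2 were 15.9 to 20.9 CPM and 16.2 to 20.6 CPM. Its knockdown values lay above all controls. The interval of knockdown replicate 2, 18.8 to 23.5 CPM, overlapped that of control replicate 3, 18.2 to 22.6 CPM, so that gap was within counting error. The log2 fold change was 0.39 (SE 0.13) and changed little without control replicate 1, at 0.36 (SE 0.13).

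**Figure D1:**
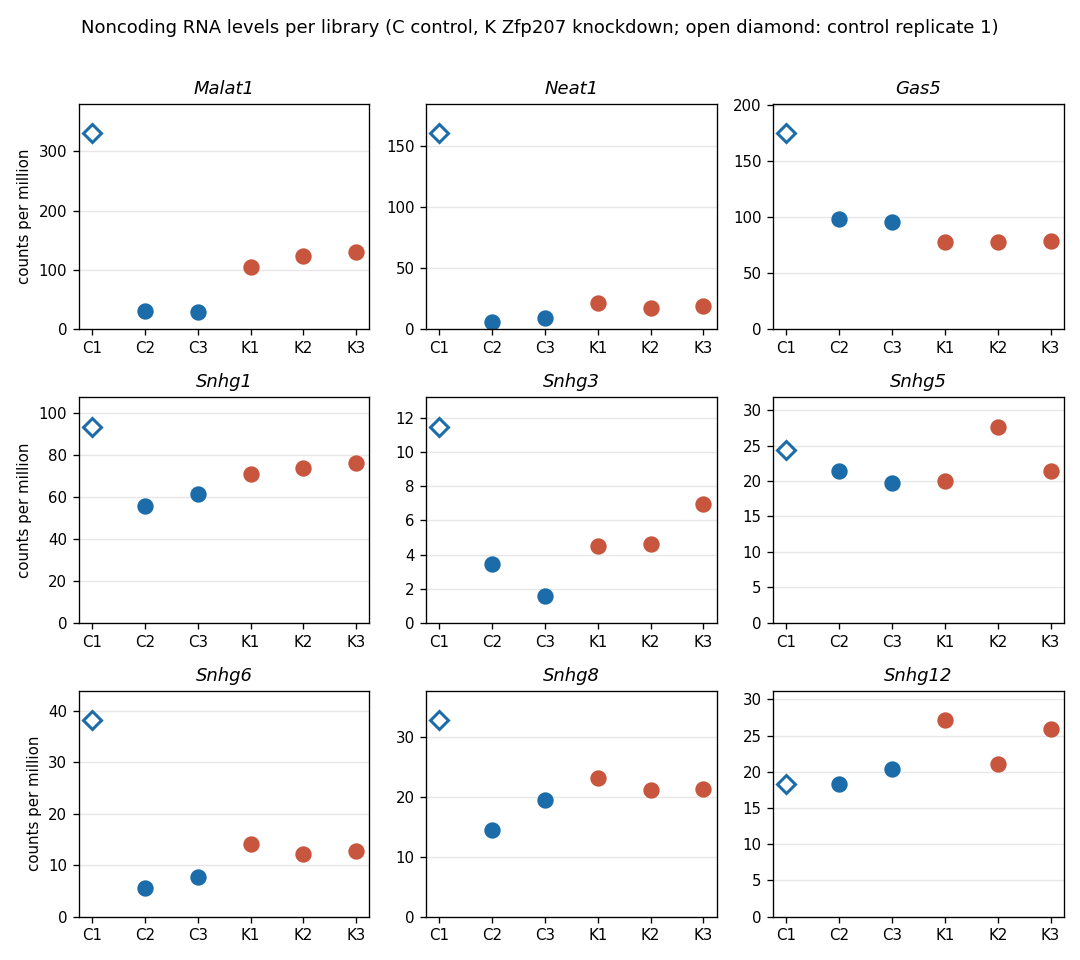
Level of each of the 9 noncoding RNAs in CPM (y axis, from 0, scaled per gene) in the 3 control libraries (blue, C1 to C3) and the 3 Zfp207 knockdown libraries (red, K1 to K3), with an open diamond for control replicate 1. Malat1 reached 330.8 in that library against 30.84 and 30.03 in the other controls, while Gas5 was below every control and Snhg12 above every control in the knockdown libraries.

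With all 6 libraries edgeR called 0 of the 9 genes, where 20.6% of the tested genes were called at an adjusted p below 0.05. At an unadjusted p below 0.05 there were 2 of the 9, Gas5 and Snhg12, beside 4296 of all 11975 tested genes. DESeq2 also called 0, beside 3238 of all tested genes. It gave no adjusted p for Malat1 and Neat1, so its 0 does not cover these 2. Without control replicate 1, which leaves 2 control libraries, 7 of the 9 were called, where 52.1% of 12108 tested genes were called. Of these, 6 were higher in knockdown cells (Malat1, Neat1, Snhg1, Snhg3, Snhg6 and Snhg12) against 26.1% of all genes, and 1 was lower (Gas5) against 26.1% of all genes. Snhg5 and Snhg8 were not called. Since the genes were selected on this contrast, nothing is read from these shares for them.

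**Figure D2:**
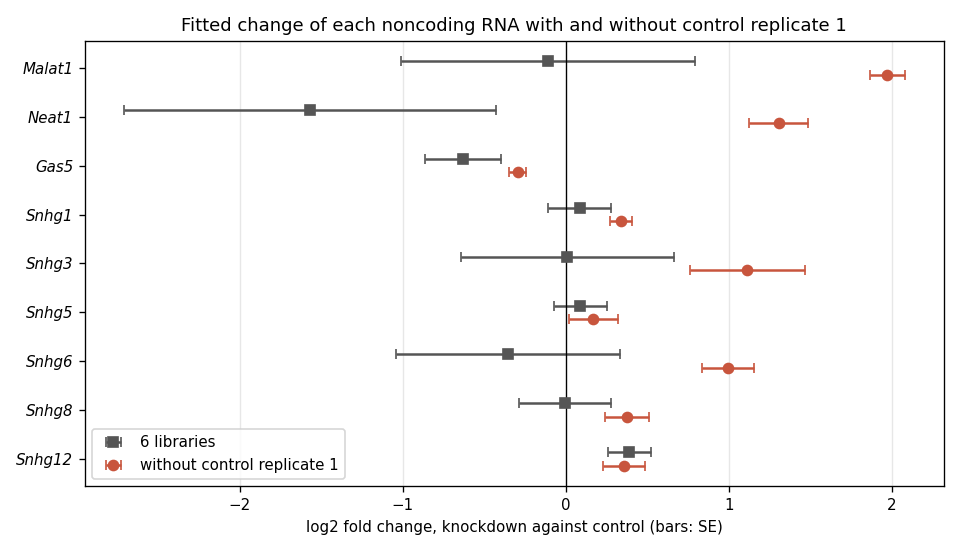
Fitted log2 fold change of knockdown against control (x axis) for the 9 noncoding RNAs (y axis), with bars for the SE, from 6 libraries (gray squares) and without control replicate 1 (red circles). Malat1 moved from -0.11 to 1.98 and Neat1 from -1.57 to 1.31 when that library was left out, while Snhg12 stayed near 0.39.

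Control replicate 1 was the highest of the 6 libraries for 7 of the 9 genes, the exceptions being Snhg5 and Snhg12. For 6 of the 9 it was highest, control replicates 2 and 3 were lowest and all knockdown libraries lay between, an order held by 9.04% of all tested genes. These were Malat1, Neat1 and the hosts Snhg1, Snhg3, Snhg6 and Snhg8, and since all 9 were chosen with these levels in view, nothing is read from that share. The excess of control replicate 1 over the mean of control replicates 2 and 3, in log2, ranked Neat1 at 18 and Malat1 at 50 of 11975 genes, with differences of 4.39 and 3.44. Snhg6 ranked 120 and Snhg3 161, with 2.56 and 2.28. Over all genes the median difference was 0.034, and 7.62% of genes were above 1 and 5.7% below -1. The ranks of knockdown over the same 2 controls were 173 for Malat1, 401 for Neat1, 540 for Snhg3 and 677 for Snhg6. Because the genes were chosen with these levels in view, nothing is read from any of these ranks either. The mitochondrial share of counts had the order of libraries seen for Malat1, and its part in these values was not tested.

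Within a library, the ratio of a retained RNA to the hosts does not depend on scaling between libraries. Malat1 counts divided by the summed counts of the 7 hosts gave 0.841, 0.142 and 0.133 in the controls and 0.438, 0.517 and 0.532 in the knockdown libraries. For Neat1 the ratios were 0.408, 0.0285 and 0.042 in the controls and 0.089, 0.0744 and 0.0787 in the knockdown libraries. Both ratios were thus highest in control replicate 1, lowest in the other controls and between in the knockdown libraries. The host sum is carried by Gas5 and Snhg1 and hides the wider range of Snhg6 and Snhg3, so the ratio does not compare retained RNAs with single hosts. The summed host level was 393.5, 216.8 and 225.4 CPM in the controls and 238.2, 238.9 and 243.2 CPM after knockdown. Gas5 took 44.5%, 45.3% and 42.3% of the host counts in the controls and 32.9%, 32.8% and 32.4% in the knockdown libraries. This share of Gas5 did not set control replicate 1 apart.

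**Figure D3:**
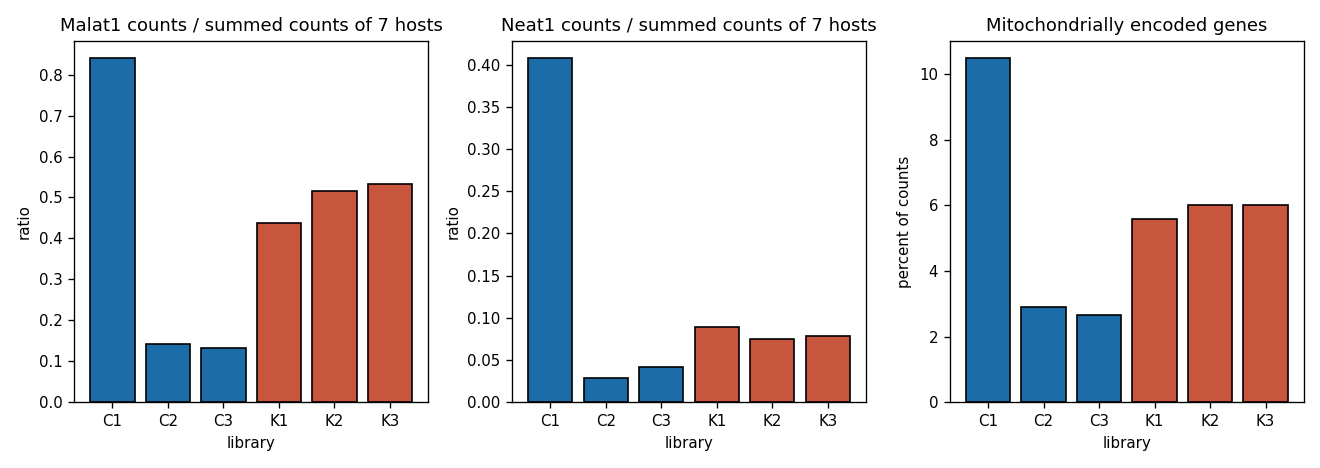
Ratio of Malat1 counts (left) and of Neat1 counts (middle) to the summed counts of the 7 snoRNA hosts, and percent of counts on mitochondrially encoded genes (right), in each control (blue) and knockdown (red) library, with all y axes from 0. The Malat1 ratio was 0.841 in control replicate 1 and 0.133 to 0.142 in the other controls, with the knockdown libraries between, and the mitochondrial share had the same order.

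Levels can be compared between genes only per length. In deposited FPKM (fragments per kilobase of gene length, scaled to the library total), the knockdown libraries placed Malat1 at 12.7 ± 1.41 and Snhg8 at 12.5 ± 0.634 (SD, n = 3). These did not differ beyond their spread. Snhg12 at 7.49 ± 0.976, Gas5 at 6.7 ± 0.0293, Snhg1 at 6.59 ± 0.222 and Snhg6 at 5.98 ± 0.451 followed, each overlapping its neighbour in FPKM. Snhg5 at 4.48 ± 0.796, Snhg3 at 2.93 ± 0.75 and Neat1 at 0.779 ± 0.0693 FPKM each lay below the one before with no overlap of libraries. In the controls the spread was set by control replicate 1: Malat1 had 35.4 FPKM there and 3.3 and 3.21 FPKM in the others, and Snhg6 17.5, 2.51 and 3.49 FPKM. Control means were 14 ± 18.5 FPKM for Malat1, 12.6 ± 5.41 for Snhg8, 10.5 ± 3.86 for Gas5 and 2.36 ± 3.55 for Neat1.

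The lengths implied by the deposited FPKM and counts exceeded the exonic length in GENCODE M21 for all 9 genes, by 1.2 times for Neat1 and 1.34 times for Malat1 and by 3.11 times for Gas5 and 3.76 times for Snhg1. In CPM per exonic kilobase the knockdown order began with Snhg8 at 25.7 ± 1.31, Snhg1 at 24.8 ± 0.834 and Gas5 at 20.9 ± 0.0912, followed by Malat1 at 17.1 ± 1.88 and Neat1 last at 0.933 ± 0.0829. Malat1 was first of the 9 by the deposited lengths only, while Neat1 was last by both. Both lengths of Neat1 cover its long isoform, and isoforms were not separated, so its level is understated if shorter isoforms gave most reads. The RNA selection is not given, so capture of RNAs without an ordinary poly(A) tail may also differ from that of the hosts. In GENCODE M21 the merged exons of Snhg1, Snhg8 and Snhg12 form 1 block over the whole gene, snoRNA positions included. Those of Gas5 cover 3760 of 4118 bases. Levels per exonic kilobase thus do not measure spliced host RNA alone.

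Similarity to other genes was measured by the root mean square difference of log2(CPM + 0.5), centred on each gene's mean over the 6 libraries, among 8557 genes with a mean of at least 10 CPM, a mean that control replicate 1 alone can carry. The profile of Malat1 was nearest to mt-Nd4 at 0.228, mt-Cytb at 0.236, Ahnak2 at 0.3, Snhg20 at 0.312 and mt-Co2 at 0.315, where the median of all candidates was 1.25. Snhg20 passed that filter through control replicate 1 and was below 10 CPM in the other libraries. The mitochondrial genes mt-Nd4 and mt-Cytb encode a subunit of complex I and cytochrome b, and mt-Co2 a subunit of cytochrome oxidase. Their levels were far above Malat1: mt-Nd4 had 6720, 989 and 868 CPM in the controls and 3460 to 3530 CPM in the knockdown libraries. Among the genes nearest to the mean profile of the 7 hosts were Nhp2 at 0.031, Pfdn5 at 0.0493, Psma5 at 0.0508 and Mrpl11 at 0.0524, with a median of 0.423 over candidates. Nhp2, which encodes a core protein of H/ACA particles, had 342, 173 and 175 CPM in the controls and 232 to 238 CPM in the knockdown libraries. The profiles share the same 6 libraries and their depths, and in both sets control replicate 1 was the highest library.

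Among other noncoding snoRNA hosts, 10 of 15 listed were in the table, 5 had enough counts to be tested and edgeR called 0 of them with 6 libraries, with 0 at an unadjusted p below 0.05 and 0 by DESeq2. Of all 11975 tested genes 20.6% were called by edgeR, 4296 were below the unadjusted threshold and DESeq2 called 3238. The median log2 fold change was -0.29 for the list and -0.03 for all. Without control replicate 1 there were 2 called, both higher, or 40% beside 52.1% of all genes. Snhg20 had 30.8, 3.02 and 3.57 CPM in the controls and 9.25, 8.76 and 8.82 CPM in the knockdown libraries (log2 fold change without control replicate 1 of 1.44, edgeR adjusted p = 0.000248), and Snhg17 had 65.9, 30.1 and 31.8 CPM and 48.0, 43.3 and 45.1 CPM (0.56, adjusted p = 0.00104). Both held the order of libraries seen for Malat1, which 9.04% of all tested genes held. With all 6 libraries their values were -0.44 (adjusted p = 0.749) and 0.11 (adjusted p = 0.814). Snhg4 ranged from 1.11 to 10.7 CPM, Epb41l4aos from 3.98 to 8.71 CPM and Dancr from 0.889 to 3.1 CPM, and the groups overlapped in each. Snhg9, Snhg11, Snhg14, Snhg18 and Rian had at most 2 counts in any library.

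Of 18 other long noncoding RNAs, 12 were tested and edgeR called 1 (1 higher and 0 lower), or 8.33% beside 20.6% of all genes. That was Trp53cor1, the p53-induced lincRNA-p21, which rose from 1.93, 1.3 and 1.78 CPM to 4.46, 4.98 and 4.51 CPM (edgeR log2 fold change 1.49, SE 0.23, adjusted p = 0.00836). The call was lost without knockdown replicate 2 or 3, with an adjusted p of at most 0.0539. At an unadjusted p below 0.05, 2 of the 12 were higher and 0 lower, and DESeq2 called 1 and gave no adjusted p for 1. Over all 11975 tested genes, 2008 were higher and 2288 lower at that unadjusted threshold, and DESeq2 called 3238. As many as 9 of the 12 were called without control replicate 1, all higher, with a median log2 fold change of 1.49 against 0.01 over all genes. That is 75% of the list, beside 52.1% of all genes called and 26.1% called higher. The imprinted antisense RNA Kcnq1ot1 had 43.4, 2.54 and 2.4 CPM in the controls and 18.6, 18.2 and 19.1 CPM in the knockdown libraries. Firre, a nuclear RNA of the X chromosome, had 36.2, 4.25 and 6.28 CPM and 14.6, 15.5 and 15.5 CPM. With all 6 libraries their log2 fold changes were 0.25 (edgeR adjusted p = 0.885) and 0.004 (adjusted p = 0.998). Xist had 508, 81.6 and 72.3 CPM in the controls and 327, 351 and 341 CPM in the knockdown libraries. Its log2 fold change with all 6 libraries was 0.65 (edgeR adjusted p = 0.566). Kcnq1ot1, Firre and Xist are named here outside the naming rule. They were among the 8 of the 12 that had the order of libraries seen for Malat1, an order held by 9.04% of all tested genes. The list was chosen with earlier results of these data known, so nothing is read from that share.

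**Figure D4:**
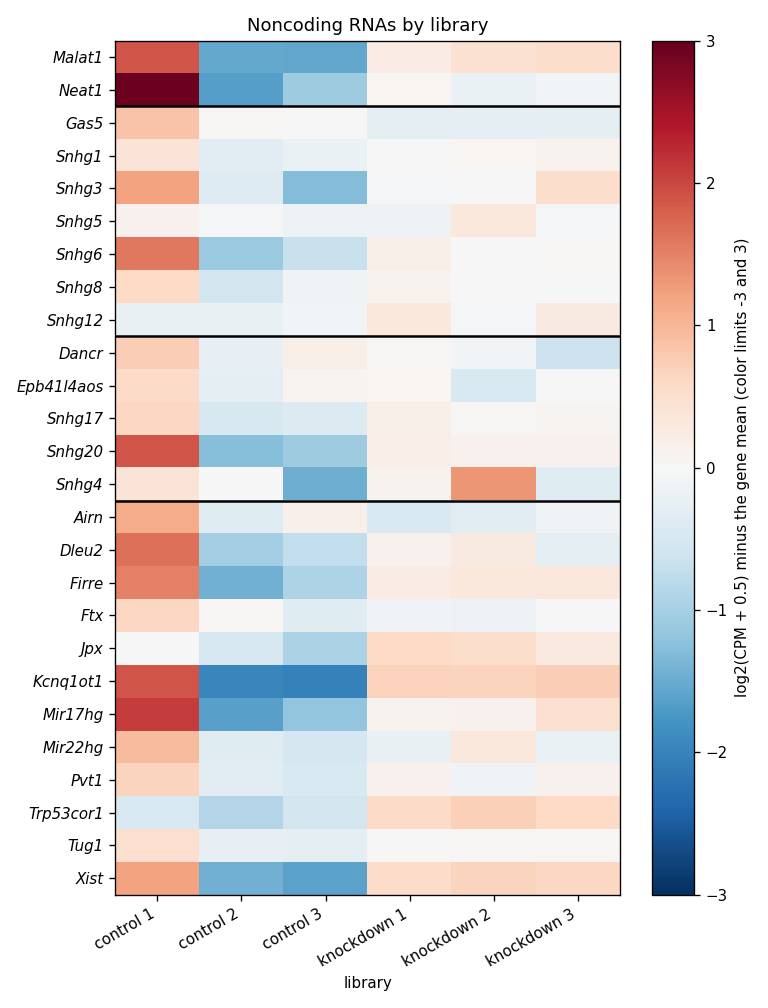
log2(CPM + 0.5) minus each gene's mean (color, limits -3 and 3) for Malat1 and Neat1, the 7 hosts, 5 other noncoding hosts and 12 other long noncoding RNAs (rows) in the 6 libraries (columns). Control replicate 1 is the reddest column and control replicates 2 and 3 the bluest for Malat1, Neat1, Snhg20 and Kcnq1ot1, while Gas5, Snhg5 and Snhg12 differ from that order.

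The proteins that act with these RNAs were read as 4 lists. Of 20 snoRNP genes tested, for the proteins that assemble or form snoRNA particles, 4 fell and 0 rose (20% of the list, beside 20.6% of all genes), with a median log2 fold change of -0.19. At an unadjusted p below 0.05 there were 8 lower and 0 higher, and DESeq2 called 6 lower and 0 higher. Over all 11975 tested genes, 2288 were lower and 2008 higher at that unadjusted threshold, and DESeq2 called 1651 lower and 1587 higher. Znhit6, an assembly factor of box C/D particles, fell from 76.7, 68.2 and 71.5 CPM to 35.1, 32.0 and 34.5 CPM (edgeR log2 fold change -1.08, SE 0.09, adjusted p = 0.00234), and its adjusted p was at most 0.0273 with any 1 library left out. Nolc1, a nucleolar chaperone, fell by 0.73 (adjusted p = 0.00765), Nop58, a core C/D protein, by 0.48 (adjusted p = 0.00999) and Gar1, a core H/ACA protein, by 0.83 on the log2 scale (adjusted p = 0.0203). These 3 calls were each lost without knockdown replicate 2 or without knockdown replicate 3, Gar1 also without control replicate 3 and Nop58 also without knockdown replicate 1. Their highest adjusted p values were 0.0549, 0.0736 and 0.0938. Leaving out control replicate 1 gave 11 calls, 9 lower and 2 higher.

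Of 20 nonsense-mediated decay genes tested, 2 rose and 3 fell. Smg1, the kinase that phosphorylates the helicase UPF1, rose from 118, 164 and 166 CPM to 292, 306 and 306 CPM (edgeR log2 fold change 1.02, SE 0.15, adjusted p = 0.00728), and Smg5, which recruits decay to phosphorylated UPF1, from 144, 136 and 132 CPM to 202, 213 and 200 CPM (0.59, SE 0.08, adjusted p = 0.0066). Both calls held with any 1 library left out, with adjusted p of at most 0.0481 and 0.0486. Rbm8a, a core protein of the exon junction complex, fell by 0.40 on the log2 scale (adjusted p = 0.0165) and Upf3b, which bridges that complex to UPF1, by 0.73 (adjusted p = 0.0195). Those were lost without any 1 of the knockdown libraries, and Rbm8a also without control replicate 2 or 3, with adjusted p up to 0.0964 and 0.0901. Upf3a, a paralog of Upf3b, was the other call, at -0.41 (adjusted p = 0.0461, up to 0.172 without 1 library), and is named here outside the naming rule. The median of the list was -0.15, and 15 were called without control replicate 1, 4 higher and 11 lower.

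Of 22 paraspeckle genes, which include factors of Neat1 3′ processing, 1 rose and 4 fell. Taf15, an RNA-binding protein, fell from 185, 182 and 192 CPM to 96.9, 111 and 100 CPM (edgeR log2 fold change -0.85, SE 0.09, adjusted p = 0.00365, at most 0.0349 with any 1 library left out). Rbm3, a cold-inducible RNA-binding protein, rose by 0.55 (adjusted p = 0.0297). Pspc1, a core paraspeckle protein, was at -0.50 (adjusted p = 0.0324) and Hnrnph1, a splicing factor, at -0.45 (adjusted p = 0.0392), and each of these 3 calls was lost without control replicate 2 and without control replicate 3, among others, with adjusted p up to 0.121, 0.141 and 0.15. The median was -0.10 (log2), and 13 were called without control replicate 1, 2 higher and 11 lower.

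Of 28 speckle genes, which include enzymes of Malat1 3′ processing, 1 rose and 3 fell, with a median of -0.15. Rpp38, a protein subunit of RNase P, was at -0.93 (edgeR adjusted p = 0.0208), Pnn, a speckle protein, at -0.36 (adjusted p = 0.0295), Srsf3, a splicing factor, at -0.52 (adjusted p = 0.0329) and Mettl16, an RNA methyltransferase that binds the Malat1 triple helix in human cells, at 0.36 (adjusted p = 0.0402). None of these 4 calls held with every library left out in turn, with adjusted p up to 0.0916, 0.132, 0.128 and 0.155, each lost without any of knockdown replicates 1 to 3. With upper-quartile scaling 0 rose and 3 fell. There were 17 calls without control replicate 1, 6 higher and 11 lower. Beside the 20.6% of all genes called with 6 libraries, the share called was 25% for nonsense-mediated decay, 22.7% for paraspeckle and 14.3% for speckle genes. Leaving out control replicate 1 gave 75% for nonsense-mediated decay, 59.1% for paraspeckle, 60.7% for speckle and 55% for snoRNP genes, beside 52.1% of all genes.

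**Figure D5:**
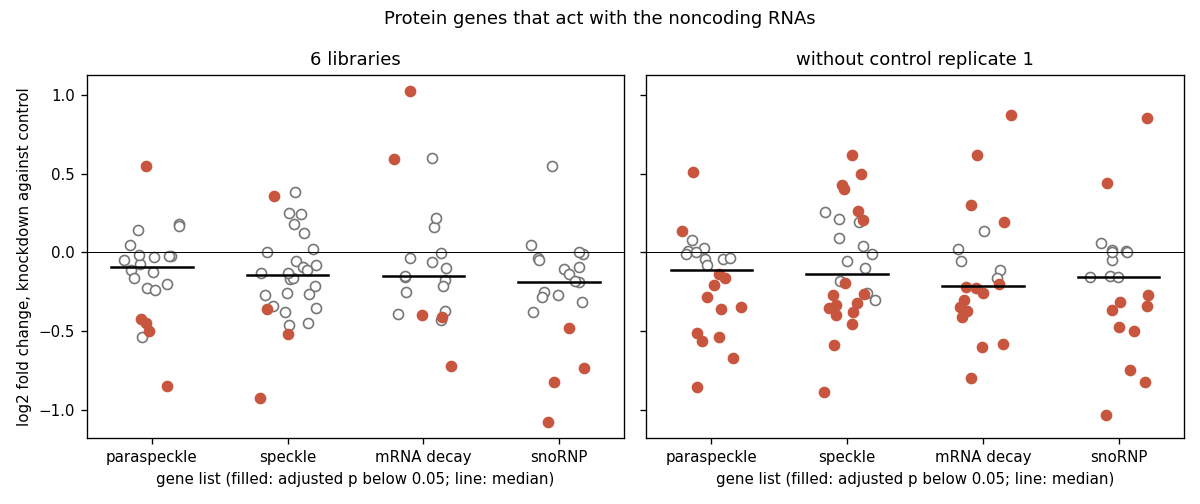
Fitted log2 fold change of knockdown against control (y axis) for the genes of 4 lists of proteins (x axis: paraspeckle, speckle, nonsense-mediated mRNA decay and snoRNP), from 6 libraries (left) and without control replicate 1 (right), with filled points for an edgeR adjusted p below 0.05 and a line for the median. Filled points lie on both sides of 0 with 6 libraries except in the snoRNP list, where the 4 called genes are all lower.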

How the data were processed

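RNA of 6 Hepa1-6 libraries was used, 3 control and 3 Zfp207 knockdown, grouped by the genotype in the labels. The deposited table holds whole-number read counts per gene, not normalized, beside FPKM values that the authors made. Per the submitters' processing notes, the tools were featureCounts 1.5.0-p3 and HISAT2 2.0.5 and the build was mm10. The sources used here give no strand setting, annotation or RNA selection.

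The test was run on counts in edgeR 4.0.16 under R 4.3.3 (filterByExpr, TMM scaling, quasi-likelihood test, Benjamini-Hochberg over all genes tested, threshold 0.05). SE is the log2 fold change divided by the square root of F. Means ± SD are TMM-scaled CPM, and values per library are CPM. Counting intervals are exact at 95% and cover counting error only. Of the identifiers 98.8% matched GENCODE M21, which gave strand, exons and snoRNA positions, used in place of the deposited coordinates because the table lists almost no snoRNA genes. The test was checked on simulated data in which all libraries of a group shared the same mean for a gene. That check does not cover a deviating library such as control replicate 1.

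The 9 genes and all lists were chosen with earlier results of these data known. Named genes are the 9, the genes that overlap them, all measured noncoding hosts, up to 4 called genes with the smallest p per other list, and the 5 nearest profiles. A gene that this rule selects is not reported here. Alternatives were DESeq2 1.42.0, upper-quartile or RLE scaling, no filter, no mitochondrial genes, each library left out, a replicate block, and for ratios FPKM or 1 host left out. CPM per exonic length was added after the data were seen.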

Additional observations from a re-analysis of the deposited data

How the results depend on the processing

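Leaving out control replicate 1 turned the direction of Malat1, Neat1 and Snhg6. With each library left out in turn, their log2 fold changes ranged from -0.58 to 1.98, from -2.10 to 1.31 and from -0.77 to 1.00, the positive extremes being those without control replicate 1. Gas5 stayed between -0.78 and -0.30 and Snhg12 between 0.33 and 0.50 under all 12 alternatives. Over those fits, calls ranged from 534 to 6313 for all genes (2466 with 6 libraries), from 0 to 7 for the 9 noncoding RNAs, from 0 to 2 for other noncoding hosts, from 5 to 137 for protein-coding hosts, from 0 to 9 for other long noncoding RNAs, from 1 to 13 for paraspeckle genes, from 0 to 17 for speckle genes, from 2 to 15 for nonsense-mediated decay genes and from 1 to 11 for snoRNP genes, and each maximum was the fit without control replicate 1. With no filter on low counts, 2 paraspeckle and 2 speckle genes were called. With upper-quartile scaling 8 snoRNP genes were called. The log2 Malat1 to host ratio of control replicate 1 over the mean of control replicates 2 and 3 was 2.61, and it was 2.42 in FPKM and 2.71 without Snhg6. The cause of these changes was not tested.

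Replicate numbers were shared between groups, but same-numbered libraries did not deviate together (r over genes of -0.008, 0.008 and 0.053), so the numbers are not taken as pairs. With a replicate block 987 genes, 17 protein-coding hosts, 1 paraspeckle, 0 speckle and 2 nonsense-mediated decay genes were called, and with all libraries kept the log2 fold changes of Malat1, Snhg6 and Neat1 were 0.95, 0.15 and -0.04, the first 2 turned in direction and none called. Depth limits Snhg3 (26 counts in control replicate 3) and Neat1 (90 counts in control replicate 2).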

Other observations

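Protein-coding hosts were 270 genes whose span wholly holds, on the same strand, an annotated snoRNA or small Cajal body RNA. Whether that RNA lies in an intron was not checked. Of the 270, 215 were tested (Snhg11, annotated as protein coding and also listed among the noncoding hosts, was not). With 6 libraries 38 were called, 22 higher and 16 lower, or 17.7% against 20.6% of all genes. With upper-quartile scaling the split was 18 higher and 23 lower. Ctage5, a gene of protein export from the endoplasmic reticulum, fell from 89.3, 95.2 and 79.8 CPM to 36.9, 32.3 and 39.2 CPM (edgeR log2 fold change -1.27, SE 0.12, adjusted p = 0.00281). Pir, which encodes the nuclear iron protein pirin, rose from 5.2, 5.83 and 5.97 CPM to 12.7, 15.3 and 14 CPM (1.32, adjusted p = 0.00383). The kinesin gene Kif13a rose by 0.85 (adjusted p = 0.00522) and Rabif fell by 0.62 on the log2 scale (adjusted p = 0.00592). These 4 calls held with any 1 library left out, and they are 4 of the 5 among the 38 that did. Without control replicate 1, 137 of 215 were called, 77 higher and 60 lower, or 63.7% against 52.1% of all genes.

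Summed over genes, the share of counts on noncoding genes had the library order of Malat1. A few abundant RNAs can carry such sums, and single genes differed. Of the tested other noncoding hosts 2 of 5 had this order, and of the tested other long noncoding RNAs 8 of 12. The share of counts on lincRNA genes was 0.322% in control replicate 1, 0.137% and 0.14% in the other controls, and 0.223%, 0.224% and 0.226% in the knockdown libraries. That share includes Malat1, Neat1, Snhg6 and Snhg12, which were chosen with their levels known. With the 9 genes left out, lincRNA, processed-transcript, antisense and sense-intronic genes together took 0.558%, 0.326% and 0.336% in the controls. In the knockdown libraries they took 0.461%, 0.457% and 0.46%, so the order was the same. Sense-intronic genes took 0.00348%, 0.000918% and 0.000929% in the controls and 0.00234% to 0.00252% in the knockdown libraries. Genes with at least 1 count numbered 15734 in control replicate 1, 14350 and 14494 in the other controls and 15149 to 15168 in the knockdown libraries, although control replicate 1 was the shallowest.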
